A study of Mus musculus with 12 samples.

Results

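The immediate early transcription factors described here in whole mouse kidney are Fos, Fosb, Jun, Junb, Egr1, Egr2, Atf3, Klf4, Klf6 and Nr4a1. They were taken by symbol from the deposited gene table, 1 row for each Ensembl gene ID, and are 10 of its 55487 gene IDs. Immediate early genes are transcribed within minutes of a stimulus, without new protein synthesis, because the factors that switch them on are already bound or waiting in the cell. Growth factors, stretch, injury and stress reach them through MAP kinases, which act on serum response factor with its ternary complex partners, and through cAMP and calcium signals, which act on CREB. Their products are short-lived and start later waves of transcription. In the kidney they are known for their rapid rise in tubules after ischaemia and other injury.

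The products fall into several families. Fos and Fosb pair with Jun or Junb to form AP-1, a dimer that binds the TPA response element. Egr1 and Egr2 are zinc finger activators held in check by Nab corepressors. Nr4a1 is an orphan nuclear receptor whose activity is set mainly by its own amount. Atf3 binds the cAMP response element and often represses, and it is also raised by the Atf4 stress arm, in which translation control after protein or amino acid stress leads to Atf4. Klf4 and Klf6 are Krüppel-like zinc finger factors, known in epithelia for growth arrest and for repair.

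The 12 RNA libraries come from whole kidneys at postnatal day 15, with 3 in each of 4 groups. The first line lost Cep120, a centriole protein, under Hoxb7-Cre, and its groups are Cep120 KO and Cep120 controls. With the same driver the second lost Pkd1, which encodes polycystin-1, a membrane protein of the primary cilium, and its groups are Pkd1 KO and Pkd1 controls. KO libraries carry homo in their titles, and control libraries carry het in their titles but WT as their genotype label, so which alleles the controls hold cannot be told from the labels. The Hoxb7 promoter drives Cre in the ureteric bud lineage, which forms the collecting ducts, so most cells of these kidneys keep both genes. Separate animals are not named in the labels, and p-values measure the spread between libraries, which may be technical. The design asks which pathways change after Cep120 loss, and how they compare with those that change after Pkd1 loss.

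Libraries held 23070736 to 31837973 counts. The tissue label fits its markers in the Cep120 groups and the Pkd1 controls, where Slc34a1 of the proximal tubule stood at 1839 to 3711 CPM, the count relative to library size with trimmed mean of M values (TMM) scaling. It stood at 220 to 323 CPM in the libraries labelled Pkd1 KO. Neither targeted gene was lower in its own KO libraries (log2 fold change 0.14 for Cep120 and 0.74 for Pkd1), and the rise of Pkd1 passed the test (adjusted p = 0.00952), so RNA does not check the labels. Xist, transcribed from the inactive X, was at most 0.325 CPM in all Pkd1 KO libraries and in Cep120 KO 1 and 2, and at 49.97 to 184 CPM in the other libraries, so that in the Pkd1 line sex and the KO label coincide and cannot be told apart. Over 28000 genes were detected in all Cep120 KO libraries, in Pkd1 control 3 and in Cep120 controls other than replicate 3, and fewer in the other 6 libraries. Adrenal RNA stood out in Pkd1 KO 3. Summed over Cyp11b1, Cyp11a1 and Star, steroid-synthesis genes of the adrenal gland, it stood at 902 CPM in Pkd1 KO 3 and at most 4.20 CPM in every other library. Cyp11b1 by itself was at 438 CPM in Pkd1 KO 3, at 0.711 and 0.902 CPM in Pkd1 KO 1 and 2, and absent from every control library.

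The promoters that follow show the elements through which such genes are known to be switched on. They are RefSeq windows on GRCm38.p6, 250 bases before to 50 bases after a start site, and the table used here matched 9 of the 10 genes, all but Egr1. Capitals mark matches on either strand to the CArG box of serum response factor, to TGACG, the core of the cAMP response element, to TATAAA, the TATA box, and to TGANTCA, the AP-1 site. Fos is shown for the gene with the largest fold change in Pkd1 KO, Egr2 for the only CArG match, and Nr4a1 for the most TGACG matches, as 1 line each.
Fos, chr12:85473640-85473939, + strand: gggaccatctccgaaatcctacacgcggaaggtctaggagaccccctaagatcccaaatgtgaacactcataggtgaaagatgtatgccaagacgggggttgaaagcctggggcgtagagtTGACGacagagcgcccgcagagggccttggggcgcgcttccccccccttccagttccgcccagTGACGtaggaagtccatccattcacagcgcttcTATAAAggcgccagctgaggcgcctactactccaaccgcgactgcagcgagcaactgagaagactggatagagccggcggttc
Egr2, chr10:67537619-67537918, + strand: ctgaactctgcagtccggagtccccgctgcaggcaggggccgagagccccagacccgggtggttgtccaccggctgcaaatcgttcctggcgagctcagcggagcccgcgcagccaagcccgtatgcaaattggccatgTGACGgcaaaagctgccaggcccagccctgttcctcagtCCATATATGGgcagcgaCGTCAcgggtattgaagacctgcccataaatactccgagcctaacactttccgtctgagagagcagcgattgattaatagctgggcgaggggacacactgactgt
Nr4a1, chr15:101266596-101266895, + strand: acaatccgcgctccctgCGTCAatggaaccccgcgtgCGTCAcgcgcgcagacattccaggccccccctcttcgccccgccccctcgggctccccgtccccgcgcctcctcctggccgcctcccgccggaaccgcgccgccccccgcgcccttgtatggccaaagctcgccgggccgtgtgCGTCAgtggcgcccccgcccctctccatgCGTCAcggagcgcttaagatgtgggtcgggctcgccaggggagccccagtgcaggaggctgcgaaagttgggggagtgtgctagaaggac
The Fos window holds TGACG at 129 and 66 bases before the start and TATAAA at 33 bases before it. In the Egr2 window, which is the one of 5 listed starts with the most matches, the CArG box lies 72 bases before the start, between TGACG matches. Nr4a1 carries TGACG 4 times, each on the opposite strand.

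Over the 9 genes, TGACG was found in 7 (all but Jun and Klf6) and in 20.8% of all 32807 windows of the table. A CArG box was found in 1 gene and in 1.63% of windows, and TATAAA in Fos and Junb and in 13.6% of windows. In Junb the TATAAA match begins at the listed start site and not before it. GCGNGGGCG, the Egr site, was found in Fosb, Klf4 and Nr4a1 and in 5.56% of windows, and GGGCGG, the GC box bound by Sp1 and Klf factors, in 8 of 9 genes and 35.6% of windows. It can overlap the Egr site. TGANTCA, the full cAMP response element TGACGTCA and the Nr4a1 element AAAGGTCA were in none of the 9 genes, and in 7.82%, 1.79% and 1.51% of windows. A gene was counted if any of its windows matched, while the percentages count windows, so the 2 are not on the same scale. By window, TGACG was in 9 of the 13 windows of these genes and the CArG box in 4. Egr2 supplies 5 of the 13 windows and all 4 with a CArG box, so this count repeats 1 gene. These are matches of letters in a short window and no measurement of binding.

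In the libraries labelled Pkd1 KO all 10 factors rose, and for each of them every Pkd1 KO library stood above every Pkd1 control. The fitted rises ran from 2.08-fold for Klf4 to 14.8-fold for Fos, with a median log2 fold change of 2.46 beside -0.04 over all 19890 genes tested. The edgeR test called 22.1% of all genes tested higher and 22.4% lower, 47.8% had a log2 fold change above 0, and 27.4% had every Pkd1 KO library above every Pkd1 control. Of the 10 factors, 7 were at least 4-fold higher with an adjusted p under 0.05, which held for 3.75% of all genes tested. All 10 passed the filter on low counts, but Fosb passed through KO libraries, since 0 Cep120 controls and 1 Pkd1 control reached its cutoff of 0.373 CPM. In these bulk samples a change in the number of cells of a type and a change in RNA per cell cannot be told apart.

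**Figure D1:**
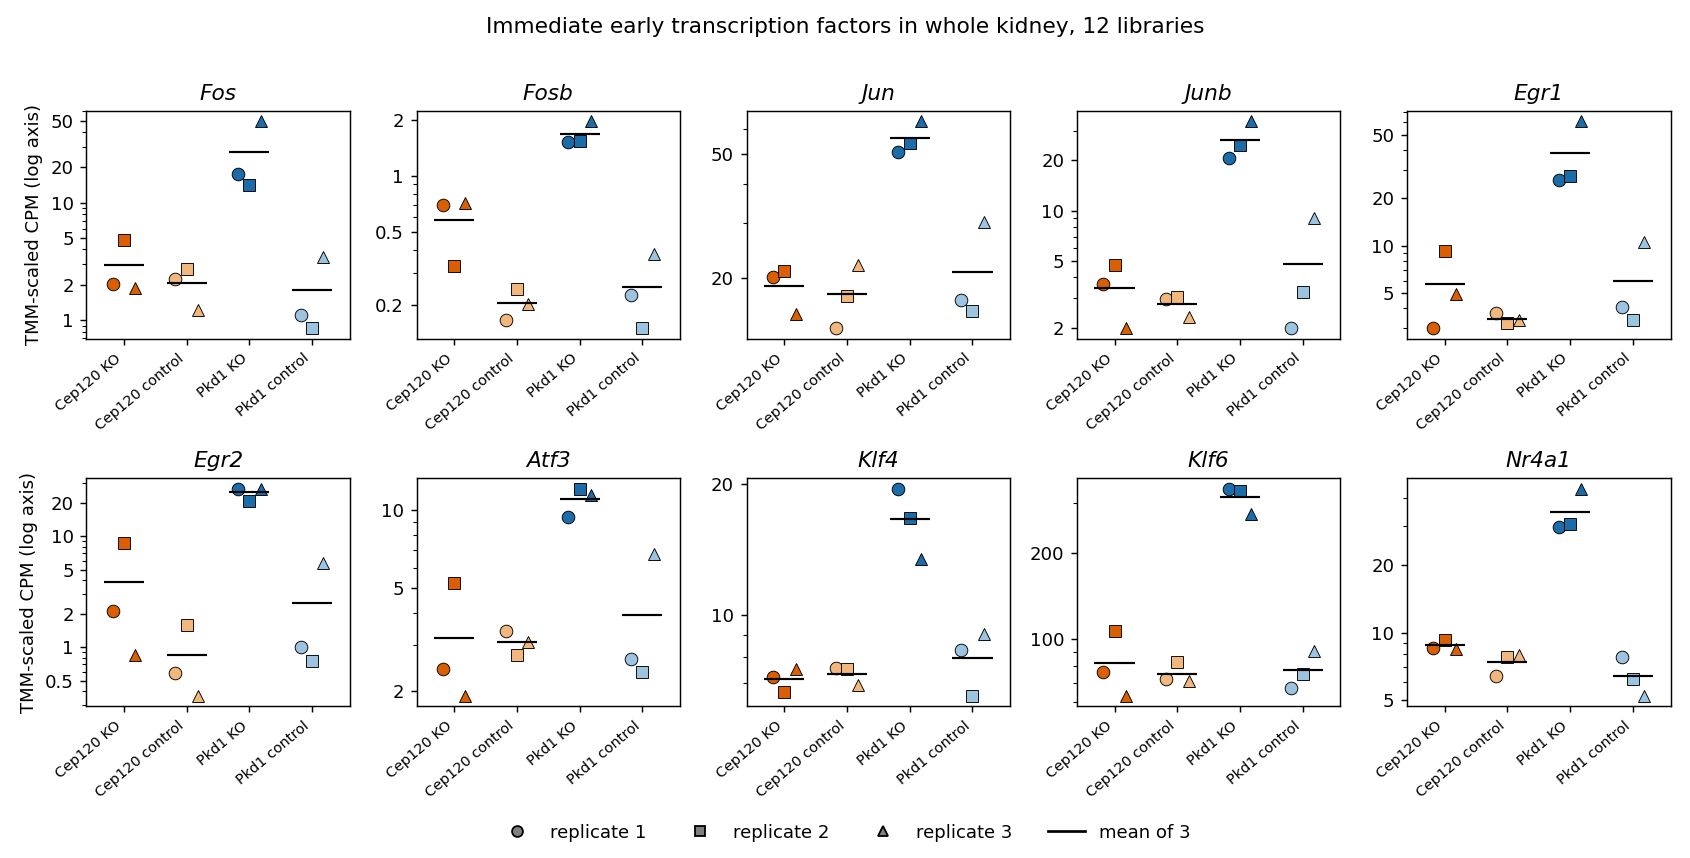
TMM-scaled CPM on a log axis for each of the 10 factors in the 12 libraries, with replicate numbers as symbols and the mean of 3 libraries as a line. The 3 Pkd1 KO libraries lie above all other libraries in every panel, and the triangle of the Pkd1 controls, replicate 3, is the highest Pkd1 control in 9 panels.

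Fos and Fosb form the Fos side of the AP-1 dimer. Fos was at 17.7, 14.3 and 49.5 CPM in Pkd1 KO 1 to 3, against 1.11, 0.854 and 3.48 CPM in Pkd1 controls 1 to 3. The groups were far apart, and replicate 3 was the highest library in both. The fitted rise of Fos was 3.89 on the log2 scale (SE 0.63, 95% interval 2.53 to 5.24, adjusted p = 0.000312 in edgeR). Fosb, which shares its partners, was scarce throughout, at 1.52, 1.55 and 1.97 CPM in Pkd1 KO 1 to 3 and 0.228, 0.151 and 0.378 CPM in Pkd1 controls 1 to 3. Its rise was 2.69 on the log2 scale (SE 0.47, adjusted p = 0.000580).

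Jun and Junb supply the partner in the dimer. Junb, the weaker activator of the pair, was at 20.8, 24.6 and 34.3 CPM in Pkd1 KO 1 to 3, against 1.99, 3.27 and 9.07 CPM in Pkd1 controls 1 to 3 (log2 fold change 2.47, SE 0.46, adjusted p = 0.000873). Jun rose less, at 50.6, 54.0 and 63.6 CPM in Pkd1 KO 1 to 3 and 17, 15.8 and 30.3 CPM in Pkd1 controls 1 to 3 (log2 fold change 1.41, SE 0.24, adjusted p = 0.000473). Pkd1 control 3 was the highest control for both genes, and lay below every Pkd1 KO library. Both genes overlap another gene on the opposite strand in GENCODE vM21, and no source used here says whether counting used strand. Prdx2, an abundant peroxidase gene next to Junb, was at 380 to 414 CPM in Pkd1 KO and 407 to 549 CPM in Pkd1 controls (log2 fold change -0.21, adjusted p = 0.237). Junos, antisense to Jun, was at 0.902 to 1.62 CPM in Pkd1 KO and 0.163 to 0.703 CPM in Pkd1 controls.

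Among the Egr genes, Egr2 had the larger fold and the wider spread. Egr2 was at 26.5, 20.9 and 26.8 CPM in Pkd1 KO 1 to 3, against 1.01, 0.754 and 5.71 CPM in Pkd1 controls 1 to 3, so the KO libraries were close together while the controls spanned 7.57-fold. Its log2 fold change was 3.30 (SE 0.82, 95% interval 1.52 to 5.08, adjusted p = 0.00587). Egr1 was at 26.0, 27.6 and 61.2 CPM in Pkd1 KO 1 to 3 and 4.10, 3.37 and 10.5 CPM in Pkd1 controls 1 to 3 (log2 fold change 2.67, SE 0.48, adjusted p = 0.000712). Here replicate 3 was the highest library of its group on both sides.

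Nr4a1 had the smallest p of the 10. It was at 29.8, 30.5 and 44.1 CPM in Pkd1 KO 1 to 3, against 7.78, 6.23 and 5.22 CPM in Pkd1 controls 1 to 3 (log2 fold change 2.44, SE 0.19, adjusted p = 1.86e-06). It is the one factor for which Pkd1 control 3 was the lowest and not the highest control.

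Klf6 followed it in p and was the most abundant of the 10. It stood at 338, 332 and 274 CPM in Pkd1 KO 1 to 3 and 66.9, 75.2 and 90.7 CPM in Pkd1 controls 1 to 3 (log2 fold change 2.02, SE 0.19, adjusted p = 5.31e-06). Klf4 had the smallest rise, at 19.5, 16.8 and 13.5 CPM in Pkd1 KO 1 to 3, against 8.34, 6.53 and 9.03 CPM in Pkd1 controls 1 to 3 (log2 fold change 1.06, SE 0.17, adjusted p = 0.000274). For both Klf genes Pkd1 KO 3 was the lowest KO library, the reverse of Fos, Egr1 and Nr4a1. Atf3 had the least margin between groups, at 9.41, 12.1 and 11.5 CPM in Pkd1 KO 1 to 3 and 2.67, 2.36 and 6.77 CPM in Pkd1 controls 1 to 3 (log2 fold change 1.48, SE 0.41, adjusted p = 0.0104). Its lowest KO library was 1.39-fold above Pkd1 control 3.

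Pkd1 control 3 was the highest Pkd1 control for 9 of the 10 factors, as it was for 45.1% of all genes tested. It stood at a median of 2.34-fold over the mean of Pkd1 controls 1 and 2, beside 1.04-fold over all genes, and 5 of the 10 were past 2-fold, beside 14.2% of all genes. The excess was 6.47-fold for Egr2, 3.55-fold for Fos, 3.45-fold for Junb and 0.744-fold for Nr4a1. Without this library the log2 fold changes in Pkd1 KO were 4.76 for Egr2, 4.74 for Fos, 3.33 for Junb, 3.32 for Egr1 and 2.10 for Atf3, and all 10 calls held. It is the one Pkd1 library with over 28000 genes detected, and with that class as a term in the fit all 10 calls also held.

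Pkd1 KO 3, the library with the most adrenal RNA, was the highest KO library for 7 of the 10 factors, as it was for 33.1% of all genes tested. Without it the log2 fold changes were 3.11 for Fos, 2.15 for Egr1, 2.21 for Nr4a1 and 1.17 for Klf4, and all 10 calls held. They also held without both replicate 3 libraries of the line, at 3.98 for Fos, 4.70 for Egr2 and 2.08 for Nr4a1. With Xist presence as a term, 4 of the 10 kept their call, namely Fosb (3.18, adjusted p = 0.0328), Klf4 (1.17, 0.0346), Klf6 (1.48, 0.00814) and Nr4a1 (2.36, 0.00249). Under that term, which draws on Cep120 KO as the only group in which Xist varied, Fos was at 3.01 (SE 1.07, adjusted p = 0.101), Egr1 at 2.36 (0.109), Junb at 1.399 (0.293), Jun at 0.99 (0.164), Egr2 at 0.64 (0.806) and Atf3 at 0.48 (0.707).

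In the libraries labelled Cep120 KO none of the 10 factors passed the test, as none of 19890 genes did in edgeR. At an unadjusted p under 0.05 there were 2 of the 10, Fosb and Egr2, and 1201 of all genes, which is 6.04%. Fosb had passed the filter on low counts through KO libraries, so it adds no support to this count. DESeq2 called 21 genes and limma voom 0, with none of the 10 in either. Of the 10 log2 fold changes, 9 were above 0, as were 51.6% of all genes tested, and their median was 0.28 beside 0.01 over all genes.

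Fosb was at 0.692, 0.325 and 0.710 CPM in Cep120 KO 1 to 3, against 0.168, 0.244 and 0.203 CPM in Cep120 controls 1 to 3, which is 1.46 on the log2 scale (SE 0.49, adjusted p = 0.757 in edgeR). The groups did not overlap for Fosb or for Nr4a1, and 8.64% of all genes had every Cep120 KO library above every Cep120 control. For Fosb the limit of the filter holds here too, with 4, 6 and 5 counts in Cep120 controls 1 to 3. Nr4a1 was at 8.58, 9.28 and 8.48 CPM in Cep120 KO 1 to 3 and 6.38, 7.77 and 7.95 CPM in Cep120 controls 1 to 3, a log2 fold change of 0.25 (95% interval -0.15 to 0.65). Egr2 was at 2.12, 8.66 and 0.852 CPM in Cep120 KO 1 to 3, against 0.588, 1.59 and 0.365 CPM in Cep120 controls 1 to 3. That is a log2 fold change of 2.20 with a 95% interval of 0.28 to 4.11 (adjusted p = 0.757), and the groups overlap.

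Egr1 was at 3, 9.18 and 4.93 CPM in Cep120 KO 1 to 3, against 3.74, 3.22 and 3.37 CPM in Cep120 controls 1 to 3 (log2 fold change 0.74, adjusted p = 0.761). Fos was at 2.04, 4.85 and 1.88 CPM in Cep120 KO 1 to 3 and 2.23, 2.73 and 1.22 CPM in Cep120 controls 1 to 3 (log2 fold change 0.51, adjusted p = 0.842). Cep120 KO 2 was the highest library for both genes. Cep120 KO 3 also lay above all controls for Egr1 but not for Fos, and Cep120 KO 1 lay above them for neither. The intervals left room for change, at -0.79 to 1.82 for Fos and -0.32 to 1.79 for Egr1, but were narrow for Klf4 (-0.40 to 0.33), Klf6 (-0.27 to 0.51) and Jun (-0.44 to 0.60). Klf4 was at 7.23, 6.67 and 7.52 CPM in Cep120 KO 1 to 3 and 7.56, 7.53 and 6.90 CPM in Cep120 controls 1 to 3.

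Cep120 KO 2 was the highest Cep120 KO library for 8 of the 10 factors, as for 33.3% of all genes tested. It stood at a median of 1.60-fold over the mean of Cep120 KO 1 and 3, with 4 of the 10 past 2-fold beside 3.07% of all genes. The 4 were Egr2 at 5.84-fold, Fos at 2.47-fold, Atf3 at 2.41-fold and Egr1 at 2.31-fold. Fosb went the other way, at 0.464-fold. Without Cep120 KO 2 the log2 fold change was 0.79 for Egr2, -0.07 for Fos and -0.51 for Atf3, against 2.20, 0.51 and 0.06 with it. For Egr2 it ran from 0.0069 to 3.02 over 26 alternatives, with the lowest value under the Xist term.

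**Figure D2:**
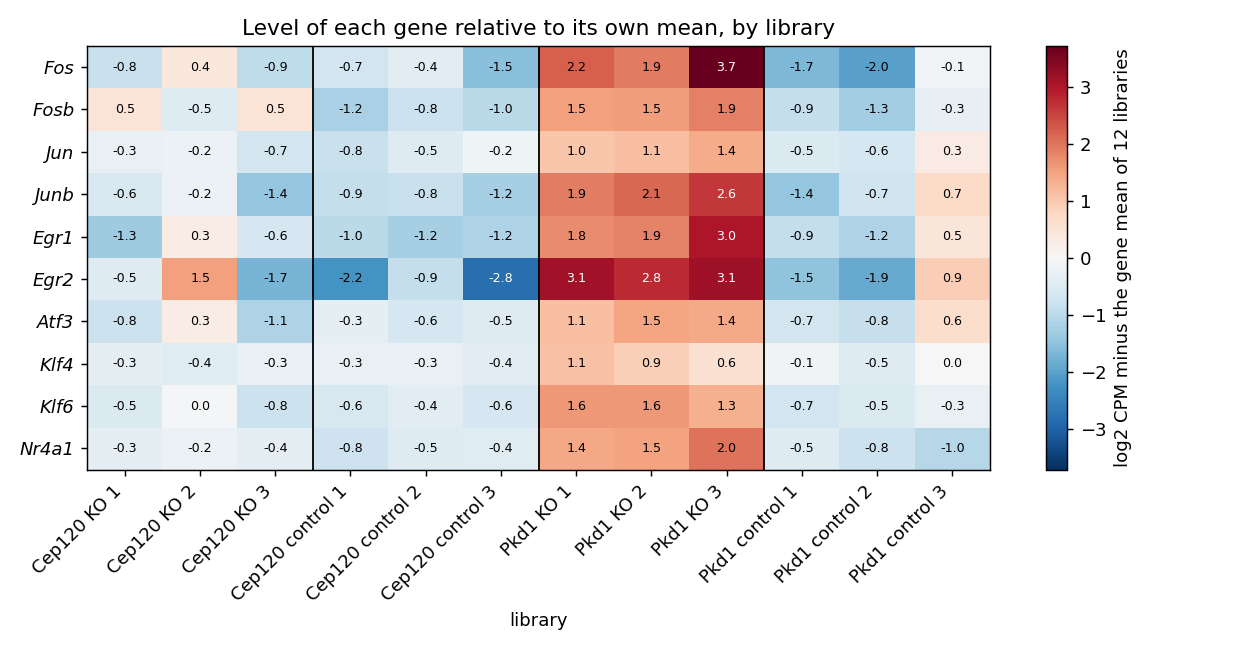
Log2 CPM of each factor minus its own mean over the 12 libraries, with the libraries in columns and the 4 groups set apart by lines. Red runs through the 3 Pkd1 KO columns, and paler red stands in Pkd1 control 3 and Cep120 KO 2 for Egr1, Egr2 and Atf3.

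With the effects in the 2 lines set against each other, 7 of the 10 factors rose more in the Pkd1 line than in the Cep120 line, beside 13.9% of all genes tested. By the interaction in the edgeR fit the difference in log2 fold change was 3.37 for Fos (SE 0.85, adjusted p = 0.0115), 2.18 for Nr4a1 (SE 0.26, adjusted p = 0.000125) and 1.90 for Klf6 (SE 0.26, adjusted p = 0.000275). It was 2.16 for Junb (adjusted p = 0.0264), 1.94 for Egr1 (0.0482), 1.33 for Jun (0.0120) and 1.09 for Klf4 (0.00501). The difference did not pass for Atf3 (1.42, adjusted p = 0.0821), Fosb (1.23, 0.194) or Egr2 (1.10, 95% interval -1.47 to 3.67, 0.513). The Egr1 call was lost without any 1 of Cep120 KO 1 or 3, Cep120 controls 1 to 3, Pkd1 KO 3 or Pkd1 controls 1 or 2, with an adjusted p of 0.0690 to 0.119. The Junb call was lost without Cep120 KO 3, Cep120 control 1 or 2, Pkd1 KO 3 or Pkd1 control 2, with an adjusted p of 0.0533 to 0.0637. The Atf3 difference passed in 8 of 25 alternatives, at 1.41 to 2.06, and the single libraries without which it passed were Cep120 KO 2 (1.97, adjusted p = 0.0175) and Pkd1 control 3 (2.04, 0.00752). The Egr2 difference ran from 0.28 to 2.94 over the same 25 and passed in 1, with no filter on low counts (1.14, adjusted p = 0.0118). It was 2.49 without Cep120 KO 2 (adjusted p = 0.104).

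**Figure D3:**
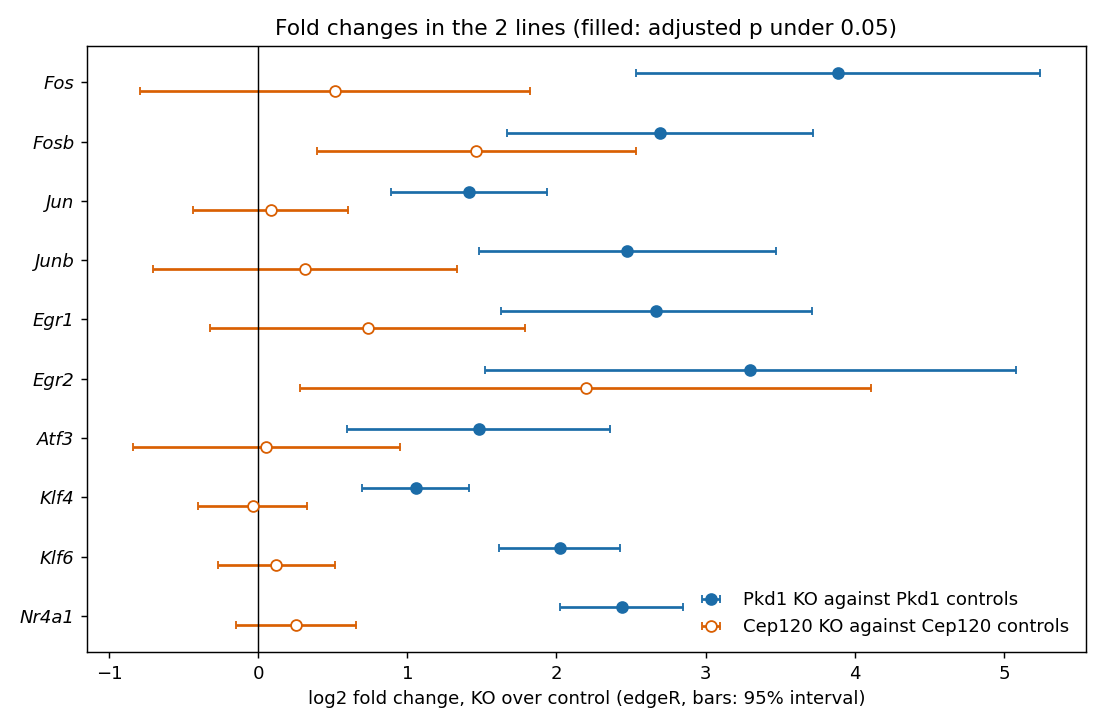
Log2 fold change of KO over control with its 95% interval for each factor, in the Pkd1 line and in the Cep120 line, with filled points for an adjusted p under 0.05. Every Pkd1 point is filled and lies from 1.06 to 3.89, and every Cep120 point is open and lies from -0.04 to 2.20.

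Ranked by mean CPM, Pkd1 KO came first for all 10 factors, apart from the next group in each. How many of all genes tested do so was not counted. Every Pkd1 KO library lay above every Pkd1 control for 27.4% of them. That condition covers the Pkd1 groups alone and is not the share for this ranking. The other 3 groups overlapped with their neighbours in rank for every factor, except that Cep120 KO lay above Cep120 controls for Nr4a1. Spread between libraries of a group differed widely between the factors. The biological coefficient of variation, the relative spread beyond counting, was 0.673 for Egr2, above that of 93.1% of genes tested, and 0.486 for Fos, above 85.5%. It was 0.159 for Klf4, 0.170 for Klf6 and 0.171 for Nr4a1, above 36.2%, 41.3% and 41.4%.

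Levels can be compared between genes only per length, in TPM, the deposited length-scaled abundance of transcripts. The 10 factors together made up 288 to 334 TPM in Pkd1 KO and 49.4 to 92.5 TPM in Pkd1 controls. They made up 52.8 to 104 TPM in Cep120 KO and 54.98 to 64.5 TPM in Cep120 controls. Klf6 was the most abundant in every library, with 49.8% to 70.8% of that sum, and averaged 185 ± 18.9 TPM in Pkd1 KO and 39.8 ± 9.16 TPM in Pkd1 controls (SD, n = 3 each). By mean TPM Fos had rank 4 of the 10 in Pkd1 KO, at 18.6 ± 13.6 TPM, and rank 8 in Pkd1 controls, at 1.10 ± 1.004 TPM. Fosb ranked last in all 4 groups, at 0.633 ± 0.185 TPM in Pkd1 KO and 0.083 ± 0.0491 TPM in Pkd1 controls.

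Within the Fos family (Fos, Fosb, Fosl1 and Fosl2) the make-up differed between the Pkd1 groups. The family summed to 20.7 to 46.2 TPM in Pkd1 KO and 2.33 to 6.63 TPM in Pkd1 controls. Fos made up 45.3% to 74.0% of it in Pkd1 KO and 17.1% to 33.9% in Pkd1 controls. Fosl2, a slower and longer-lived member, made up 24.1% to 49.3% in Pkd1 KO and 62.7% to 81.2% in Pkd1 controls. Neither share overlapped between the Pkd1 groups, and both overlapped between Cep120 KO, with 26.4% to 44.4% for Fos, and Cep120 controls, with 28.2% to 38.7%.

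In the Jun family (Jun, Junb and Jund) the sum was 66.2 to 79.1 TPM in Pkd1 KO and 17.3 to 36.9 TPM in Pkd1 controls. Junb made up 26.9% to 36.5% in Pkd1 KO and 8.74% to 21.4% in Pkd1 controls, Jun 33.3% to 35.4% and 27.9% to 38.3%, and Jund, which is expressed without stimulus, 28.2% to 39.8% and 42.7% to 60.8%. The Junb and Jund shares did not overlap between the Pkd1 groups, while the Jun shares did. In the Egr family, Egr2 made up 31.0% to 52.4% of the sum in Pkd1 KO and 18.6% to 35.0% in Pkd1 controls, and Egr3 and Egr4 were at most 0.229 TPM and 0.036 TPM in any library.

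**Figure D4:**
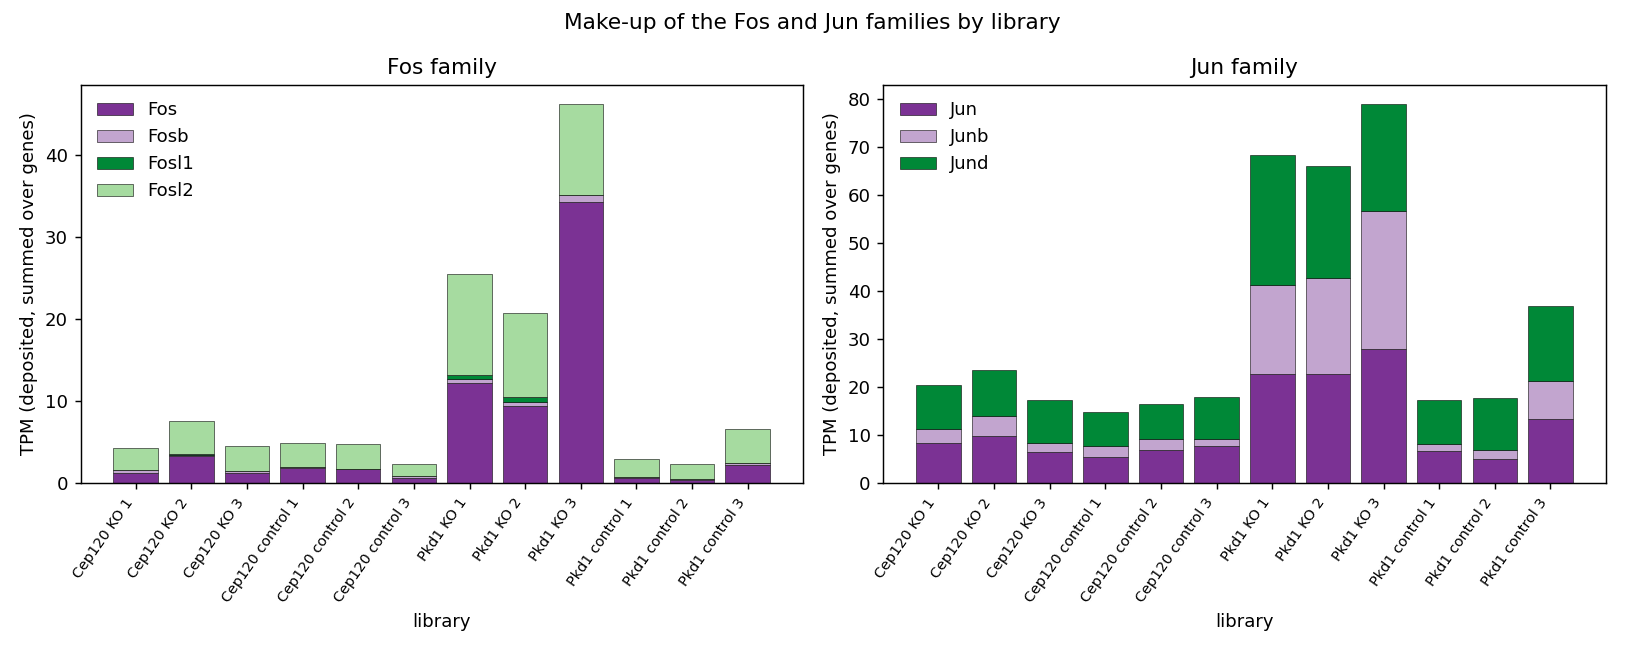
Deposited TPM of the Fos family and of the Jun family in each of the 12 libraries, stacked by gene. The Fos bars of the Pkd1 KO libraries reach 20.7 to 46.2 TPM and hold a larger share of Fos than those of the Pkd1 controls, and the Jun bars gain most in Junb.

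Transcript TPM split Klf6 almost evenly between its protein-coding transcript and one with a retained intron. Klf6-201, the coding one, made up 46.1% to 48.5% of the gene in Pkd1 KO and 39.7% to 48.8% in Pkd1 controls, and Klf6-202, the retained intron, 51.3% to 53.9% and 47.9% to 57.2%. Egr1-202 made up at least 89.2% of Egr1 in every library. Fos-201, the coding transcript, made up 94.7% to 97.01% of Fos in Pkd1 KO, and in Pkd1 controls it was the one transcript listed above 0. Fos-202, a processed transcript, was at 0.362 to 1.75 TPM in Pkd1 KO. In Cep120 controls Fos-202 made up 41.4% of Fos in replicate 1, where Fos held 53 counts, and was listed at 0 in the others. Fosb-201 was listed above 0 in Pkd1 KO 2 and 3 and at 0 in the other 10 libraries. Fosb was at most 0.844 TPM in any library, and its split moved between transcripts from library to library. In Pkd1 KO 1, Fosb-205 made up 48.7% and Fosb-207 46.7%. At such levels the split is uncertain.

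Other immediate early genes rose as well in the libraries labelled Pkd1 KO. All 25 on the list were tested. Of these 20 rose and none fell, beside 22.1% of all genes tested called higher and 22.4% lower. Their median was 1.29 on the log2 scale. Gem, a small GTPase that restrains calcium channels, was at 54.98, 68.8 and 45.1 CPM in Pkd1 KO 1 to 3, against 11.04, 10.3 and 11.9 CPM in Pkd1 controls 1 to 3 (2.35, adjusted p = 4.57e-06). Cyr61 (Ccn1), a secreted matrix protein and a target of serum response factor and YAP, was at 245, 226 and 414 CPM in Pkd1 KO 1 to 3 and 33.5, 33.8 and 45.8 CPM in Pkd1 controls 1 to 3 (2.97, adjusted p = 2.35e-05). For both genes every Pkd1 KO library lay above every Pkd1 control.

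Not every relative of the 10 moved. Among 11 tested genes of the other AP-1 and small Maf list, 5 rose and 1 fell in Pkd1 KO. Of all genes tested, 22.1% were called higher and 22.4% lower. Fosl2 rose by 1.88 (adjusted p = 3.67e-05) and Mafk, a small Maf without an activation domain, by 1.47 (adjusted p = 7.20e-06). The gene that fell, named after its values were seen, was Batf3, which dendritic cells need (-1.43, adjusted p = 0.00356). Fosl1 was under the filter, with at most 0.290 CPM in any Pkd1 library. Of 4 tested Egr, Nr4a and Nab genes, Nr4a2 rose by 1.35 (adjusted p = 0.00372) and Nab2, the corepressor that Egr factors induce, by 1.10 (adjusted p = 0.00118). Egr3 and Egr4 were under the filter. Of 10 other Klf genes 5 rose and 1 fell, led by Klf5, which was at 80.1, 69.7 and 70.1 CPM in Pkd1 KO 1 to 3 and 8.40, 8.74 and 14.6 CPM in Pkd1 controls 1 to 3 (2.79, adjusted p = 2.55e-06). Klf7 rose by 0.92 (adjusted p = 6.26e-05). The one that fell, named after its values were seen, was Klf12, a repressor (-1.10, adjusted p = 0.000298).

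Of 15 upstream kinases and factors, 3 rose and 3 fell in Pkd1 KO, with a median of 0.11. These shares are near those of all genes tested, 22.1% higher and 22.4% lower, and are no result about the list. Mkl1 and Mkl2 (Mrtfa and Mrtfb), the actin-regulated partners of serum response factor, rose by 1.35 (adjusted p = 4.83e-05) and 0.83 (adjusted p = 0.000156). Of 12 MAP kinase feedback inhibitors 5 rose and 1 fell, beside the same shares of all genes. Log2 fold changes in this list ran from -0.41 to 3.46. Dusp2, a nuclear MAP kinase phosphatase, was at 5.42, 3.87 and 8.29 CPM in Pkd1 KO 1 to 3, against 0.651, 0.502 and 0.416 CPM in Pkd1 controls 1 to 3 (3.46, adjusted p = 3.04e-05). Spry1, an inhibitor of receptor tyrosine kinase signalling, rose by 1.08 (adjusted p = 0.000177).

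All 8 genes of the Atf4 stress arm rose in Pkd1 KO, beside 22.1% of all genes tested, with a median of 1.32. Ppp1r15a, which restores translation after stress, was at 62.9, 64.1 and 61.2 CPM in Pkd1 KO 1 to 3 and 22.5, 20.0 and 18.7 CPM in Pkd1 controls 1 to 3 (1.62, adjusted p = 2.20e-06). Asns, asparagine synthetase, rose by 1.71 (adjusted p = 1.24e-05). Heat shock genes went both ways, with 4 of 10 higher, 4 lower and a median of 0.03. Of all genes tested, 22.1% were called higher and 22.4% lower. The mitochondrial chaperonins Hspe1 and Hspd1 fell by 1.53 (adjusted p = 0.000141) and 1.42 (adjusted p = 0.000143) on the log2 scale. Log2 fold changes of the heat shock genes ran from -1.53 to 2.37.

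In Cep120 KO no gene of these 8 lists passed. The smallest p in the other immediate early list belonged to Socs3, a cytokine feedback inhibitor, at 3.65, 10.4 and 4.44 CPM in Cep120 KO 1 to 3 and 1.85, 2.28 and 2.15 CPM in Cep120 controls 1 to 3 (1.57, adjusted p = 0.757), and to Plk3, a stress-responsive kinase (0.93, adjusted p = 0.757). Socs3 was again highest in Cep120 KO 2. The genes named by the same rule in the other lists were Mafg at 0.38, Atf7 at 0.25, Nr4a3 at 1.14, Nab1 at 0.01, Klf7 at 0.12, Klf3 at 0.16, Mkl1 at 0.37, Creb1 at 0.20, Spry2 at 0.39, Dusp10 at -0.65, Ddit4 at -0.45 and Ddit3 at -0.31 on the log2 scale. All 10 heat shock genes were below 0 in Cep120 KO, where 51.6% of all genes tested were above 0. Hspa1a was at -0.58 and Hspa1b at -0.52. These are near-identical copies whose reads the counting may have split.

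**Figure D5:**
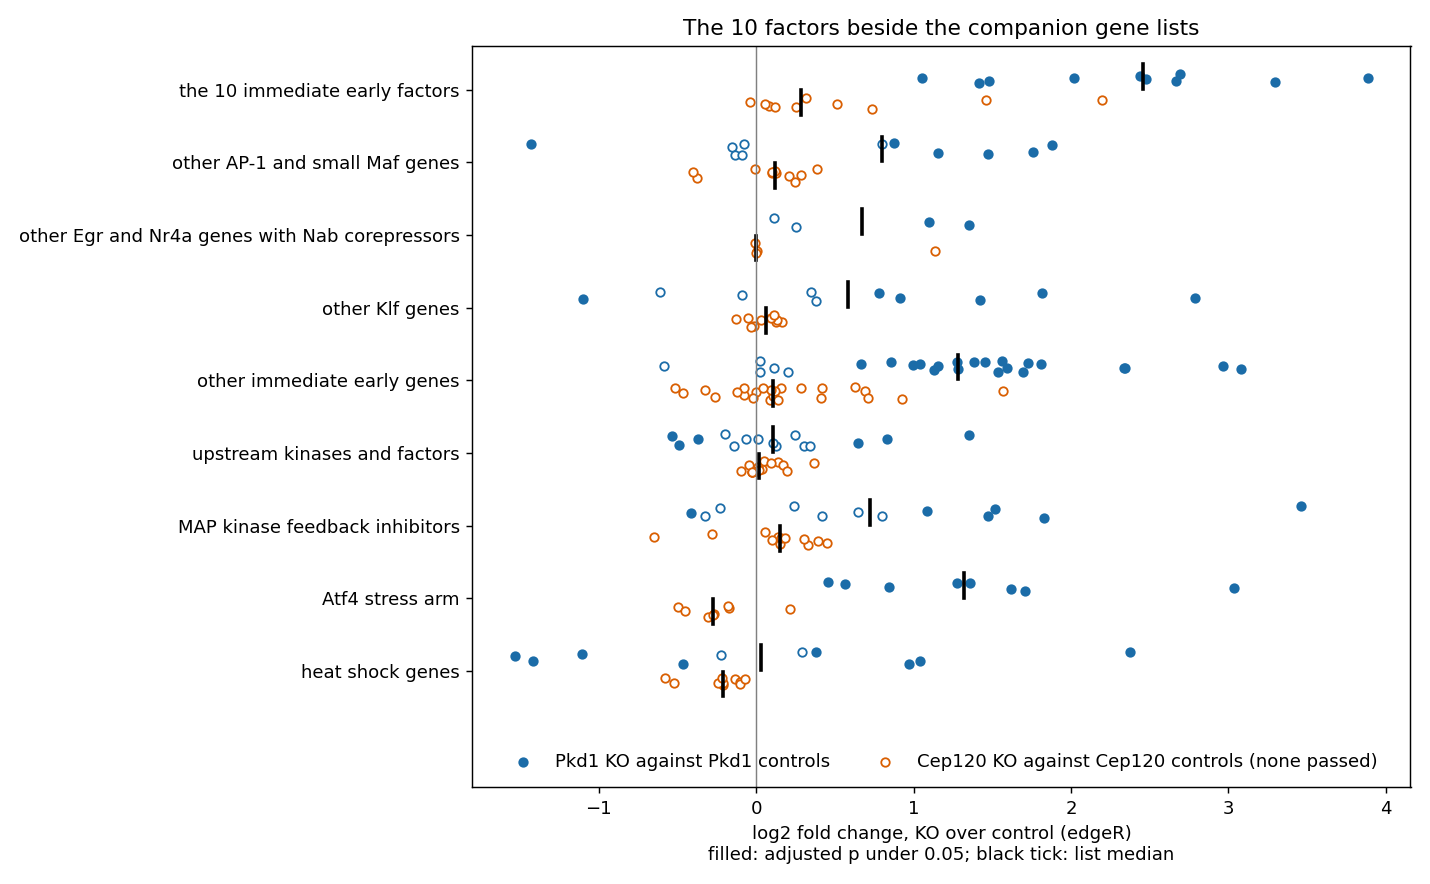
Log2 fold change of KO over control for the 10 factors and for each tested gene of the 8 companion lists, in the Pkd1 line (blue, filled where the adjusted p is under 0.05) and in the Cep120 line (orange, none passed), with a black tick at each median. The Pkd1 medians are 2.46 for the 10 factors, 1.29 for other immediate early genes and 1.32 for the Atf4 stress arm, and 0.03 for heat shock genes.

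Markers of several other cell types moved with the Pkd1 KO label beside all of these results. Of all genes tested, 22.1% were called higher and 22.4% lower. Of 8 macrophage markers 8 were higher, summing to 713 to 1031 CPM in Pkd1 KO and 104 to 280 CPM in Pkd1 controls. Of 8 fibroblast and smooth muscle markers 7 were higher, at 4460 to 6976 CPM in Pkd1 KO and 949 to 1633 CPM in Pkd1 controls. Collecting duct markers, from the segment where Hoxb7-Cre acts, were higher for 5 of 6 and lower for 1, at 1739 to 3296 CPM in Pkd1 KO and 532 to 763 CPM in Pkd1 controls. All 6 proximal tubule markers were lower, at 396 to 576 CPM in Pkd1 KO and 4025 to 6753 CPM in Pkd1 controls, and 7 of 8 endothelial markers were lower, at 317 to 391 CPM and 588 to 621 CPM. None of the markers in these 5 lists was at 0 in any library. Pkd1 control 3 had the highest control sums for macrophage (280 against 104 and 134 CPM) and fibroblast and smooth muscle markers (1633 against 1034 and 949 CPM). Its proximal tubule (4025 against 6624 and 6753 CPM) and endothelial sums were the lowest, and its collecting duct sum lay between. In Cep120 KO 2 the fibroblast and smooth muscle sum was 1972 CPM, against 932 and 1039 CPM in Cep120 KO 1 and 3.

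All 6 T and B cell markers were lower, at 0.846 to 1.76 CPM in Pkd1 KO and 7.60 to 10.9 CPM in Pkd1 controls. Neutrophil markers summed to 6.25 to 10.98 CPM in Pkd1 KO and 2.12 to 6.05 CPM in Pkd1 controls, with 1 of 5 tested higher. Thick limb and distal tubule markers were lower for 4 of 4, podocyte markers for 2 of 4 and adipose markers for 1 of 4, and 1 of 2 tested skeletal muscle markers was higher. The neutrophil and adipose counts are near the shares of all genes tested, 22.1% higher and 22.4% lower. They are no result about those lists. All 3 adrenal markers were called higher, and Pkd1 KO 3 held nearly all of their counts. In Cep120 KO no marker of the 12 lists passed. The part of these cell types in the levels of the 10 factors was not tested.

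Over the 12 libraries, the genes most like a factor were those with the smallest root mean square distance in centred log2 CPM, among all genes tested but the 10. For Fos they were Ttc39a (0.45), Krt80, an epithelial keratin (0.50), 2310043M15Rik (0.51) and Cers3, a ceramide synthase (0.53), beside a median distance of 1.74 over all genes. For Egr1 they included Slc38a4, an amino acid transporter (0.35), Ccn1 (0.38) and Dcdc2a (0.40), beside a median of 1.46. For Atf3 they were Rrad, a small GTPase related to Gem (0.22), Smpdl3b (0.27), Spp1, osteopontin (0.27), and Fchsd1 (0.27), beside a median of 0.98. Among the 10 themselves the closest pairs were Jun with Klf6 (0.33) and Jun with Atf3 (0.34), and Egr2 was the farthest from any other, at 0.86 from Fos. These distances share the libraries and the Pkd1 contrast, and are a description.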

How the data were processed

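The labels describe kidneys ground in liquid nitrogen, RNA taken up in Trizol and cDNA from a low-input SMARTer kit. The submitters' processing notes list Salmon 0.8.2, STAR 2.5.1a, featureCounts 1.4.6-p5, Subread, bcl2fastq and mm9, with no role for any of them. Genes were taken from the deposited table of estimated counts, in which 21.6% of genes hold values that are not whole. Levels between genes use the deposited TPM, per gene and per transcript. The deposited log2 CPM, with a prior count that no source states, served as another input. The remaining deposited tables were not used here.

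Of 55774 lines, 287 repeat a gene ID and were left out, which leaves 55487. Values were rounded, genes were kept by filterByExpr (minimum count 10), with 19890 kept, and TMM factors scaled the libraries. One edgeR 4.0.16 quasi-likelihood fit in R 4.3.3 over all 12 libraries and 4 groups gave both KO comparisons and their difference, with p-values adjusted by Benjamini-Hochberg over all genes tested at a threshold of 0.05. Each SE is the size of the log2 fold change divided by the square root of its F. The edgeR fit was tested on simulated data. The simulation changed far fewer genes than were called in Pkd1 KO, so it cannot judge scaling or error rates there. Total counts per library of 23070736 to 31837973 limit precision for scarce genes such as Fosb, and cover counting error only. CPM values were computed from these counts and are TMM-scaled.

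The 10 factors, the 8 companion lists and the 12 marker lists were chosen with earlier results of these data known. Named genes were the 10 factors, the 2 genes of each companion list with the smallest p in each KO comparison, the 4 genes most like Fos, Egr1 and Atf3 by log2 CPM with a prior count of 2, and both targeted genes. One gene that this rule names for Egr1 is not reported here. Symbols not in the files were matched through RefSeq synonyms. Promoter sequences are RefSeq windows on GRCm38.p6, with 9 of 10 genes matched. Genes that overlap on the other strand were found by position within GENCODE vM21. Alternatives were RLE and upper quartile scaling, no filter, 5 CPM in 3 libraries, unrounded counts, limma 3.58.1 with voom or on the deposited log2 CPM, DESeq2 1.42.0, a threshold of 0.01, the 6 libraries of a comparison alone, terms for detected genes and Xist, the replicate number as a block, and libraries left out.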

Additional observations from a re-analysis of the deposited data

Results flagged for a closer look

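For 7 of the 10 factors the effect of the KO label differed between the lines by the interaction in the edgeR fit. The Pkd1 effect minus the Cep120 effect was 3.37 on the log2 scale for Fos (adjusted p = 0.0115), 2.18 for Nr4a1 (0.000125), 2.16 for Junb (0.0264), 1.94 for Egr1 (0.0482), 1.90 for Klf6 (0.000275), 1.33 for Jun (0.0120) and 1.09 for Klf4 (0.00501). Each of the 7 was higher in 3 of 3 Pkd1 KO libraries than in every Pkd1 control, as were 27.4% of all genes tested. At a threshold of 0.01 the difference passed for 3 factors, Klf4, Klf6 and Nr4a1. At 0.05, over 25 other alternatives, the difference for Fos, Klf4, Klf6 and Nr4a1 stayed past the threshold, at 2.60 to 4.51, 0.95 to 1.30, 1.73 to 2.12 and 1.82 to 2.36. The Egr1 difference missed it in 13 of these 25, the Junb difference in 6 and the Jun difference in 1, the deposited log2 CPM with limma (1.33, adjusted p = 0.0507). Within the Pkd1 line Xist is at or near 0 in all KO libraries and present in all controls, so sex and the KO label cannot be told apart there, and with Xist presence as a term the difference was called for 5 of the 10.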

How the results depend on the processing

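All 10 factors were called higher in Pkd1 KO under each alternative but 3 (of 259 values for single factors, 253 kept direction and side of the threshold and 6 lost the call, all with Xist presence as a term). The exceptions were 4 with Xist presence as a term (2002 of all genes, against 8839), 9 at a threshold of 0.01 and 9 at 5 CPM in 3 libraries, where Fosb was not tested. Leaving out 1 library at a time gave 10 of 10 throughout and 7277 to 9266 of all genes. In Cep120 KO 0 factors were called, except for 2, Egr1 and Egr2, with no filter. All genes called there were 344 with no filter, 21 with DESeq2 (9 higher, 12 lower), 1 without both replicate 3 controls, 1 without both replicate 3 Pkd1 libraries (chosen after seeing the data) and 0 to 2 with 1 library left out. The difference was called for 3 factors and 2751 genes at 0.01, and for 5 to 8 factors and 4225 to 5781 genes with 1 library left out.

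No value turned sign in Pkd1 KO or in the difference. In Cep120 KO none of the values that turned had been called. They were 9.31e-07 for Klf4 at 5 CPM, -0.00183 for Jun, -0.0662 for Junb and -0.21 for Atf3 with a term for detected genes, and -0.0579 for Atf3 with voom. With Xist presence as a term they were -0.13 for Fos, -0.22 for Jun, -0.48 for Junb, -0.68 for Atf3, 0.0382 for Klf4 and -0.26 for Klf6. Klf4 was at 0.0962 with the deposited log2 CPM, under which the median of all genes moved to 0.15, and under upper quartile scaling that median was -0.13 in Pkd1 KO. With 1 library left out, the values ran from -0.0723 to 0.769 for Fos, -0.0721 to 0.265 for Jun, -0.509 to 0.317 for Atf3, -0.0804 to 0.00838 for Klf4 and -0.114 to 0.278 for Klf6, and removing Cep120 KO 2 turned the sign of all 5. Removing Cep120 control 1 also turned Jun, and Cep120 control 2 also turned Atf3 (-0.0206). The cause was not tested.

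Deviations of same-numbered libraries from their group means had correlations of -0.14 to 0.18 over genes. With means of 3 libraries, and no comparison with libraries of different number, this cannot settle whether the numbers pair them. With the replicate number as a block, 0, 10 and 7 factors were called in Cep120 KO, Pkd1 KO and the difference, with 7804 genes in Pkd1 KO and 4363 in the difference.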
